A study of Mus musculus with 12 samples.

Results

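Genes for 9 secreted factors that act between metabolic organs, Angptl4, Angptl6, Fndc5, Mstn, Il15, Gdf15, Fst, Inhbe and Fetub, were examined in RNA-seq data from 4 mouse organs. They were taken by symbol from a table of 22276 gene symbols, and each of the 9 had a row with values in all 12 libraries. The measurements describe which organ held the transcript of each factor and how its level differed with diet and with narciclasine (ncls).

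Angiopoietin-like proteins are secreted glycoproteins that control plasma triglyceride by acting on lipoprotein lipase, the enzyme that frees fatty acids from circulating lipoproteins. Myokines such as myostatin, irisin (cut from FNDC5) and interleukin-15 are released by muscle, whereas hepatokines such as fetuin-B and inhibin beta E come from hepatocytes. Myostatin, GDF15 and the activins belong to the TGF-beta superfamily, and follistatin, also a member of the set, is a soluble trap for activins and myostatin.

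White fat (WAT), brown fat (BAT), liver and quadriceps muscle came from male C57BL/6J mice that were 17 wk old at collection. NCD-veh mice ate normal chow and received the vehicle, a hydroxypropyl cyclodextrin solution, and HFD-veh mice received the same vehicle on a high-fat diet begun at 8 wk of age. HFD-ncls mice ate the same high-fat diet and received ncls, an alkaloid of Amaryllidaceae plants, at 1 mg/kg. Dosing was by gavage, weekly, over 7 wk and started when the mice were 10 wk old. All mice were wild type, no untreated group without gavage was analysed here, and each organ and group had 1 library, so 12 libraries in all. The number of mice behind a library is not given in the sources used here.

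Levels are in FPKM, fragments per kilobase of transcript scaled to the fragments mapped, so that levels of different genes can be compared per unit of length. Depth was about 18200000 to 25700000 fragments per library, estimated from the FPKM worth of 1 fragment. Where 3 values are given for an organ without group names, they stand for NCD-veh, then HFD-veh, then HFD-ncls. Differences between groups within an organ are log2 ratios of (FPKM + 0.1) for genes that reached 1 FPKM in at least 1 of the libraries compared. With 1 library per group these differences have no test, and a ratio past 2-fold is a description of the 2 libraries. Intervals given with FPKM ratios are 95% intervals from the approximate fragment numbers and cover counting error only. Differences between organs were tested with limma over 13648 genes, with the 3 libraries of an organ (1 per group) taken as its repeats and the group as a covariate. In bulk tissue, fewer cells of a type and less RNA per cell cannot be told apart.

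Some libraries held transcripts of marker genes of another organ, which bears on low levels. The origin of these transcripts was not tested. In HFD-veh muscle, 15 liver markers had a median of 0.626% of their level in HFD-veh liver, against 0.00265% and 0.000665% in the NCD-veh and HFD-ncls libraries of that organ. In WAT the median was 0.000492%, 0.0673% and 0.238%. In NCD-veh WAT 7 of the 15 were listed at 0, against none in the other WAT libraries, and Cyp2e1, which fat cells also express, stood at 9.17% to 28.0%. In BAT 7 to 9 of the 15 were listed at 0. In BAT, 11 muscle markers had medians of 1.83%, 0.779% and 0.112% of the muscle level. In liver they had medians of 0.000375%, 0.0633% and 0.000285%, with 10 of 10 tested markers past 2-fold higher with diet. In muscle, 5 of 8 white adipose markers were past 2-fold higher with diet and 1 lower, and Lep, the gene for leptin, was at 0.133, 5.04 and 1.60 FPKM.

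By FPKM without further normalization, 6 of the 9 factors had a single highest organ, 2 were shared by the fat depots, and Il15 was spread over WAT, BAT and muscle. Fetub, Inhbe, Gdf15 and Angptl6 were highest in liver, Fndc5 and Mstn in muscle, Angptl4 in WAT and BAT, and Fst in BAT and WAT. The difference between the highest organ and each of the other 3 passed the test for Fetub, Inhbe, Gdf15, Angptl6, Fndc5 and Mstn. Of the 54 differences between organ pairs over the 9 genes, 37 passed at an adjusted p of 0.05 (limma, Benjamini-Hochberg). Most genes differ between organs, and the same threshold was passed by 78.5% of all genes for WAT against BAT, 82.3% for WAT against liver and 82.8% for WAT against muscle. It was passed by 66.8% for BAT against liver, 68.2% for BAT against muscle and 74.7% for liver against muscle. Over all genes, the median log2 difference was 0.97 for WAT minus BAT, 1.00 for WAT minus liver and 1.20 for WAT minus muscle. Differences that involve WAT are read against that shift. After quantile normalization, Fst in WAT was below BAT and no longer passed against muscle or liver, and Il15 in WAT was below BAT and muscle.

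**Figure D1:**
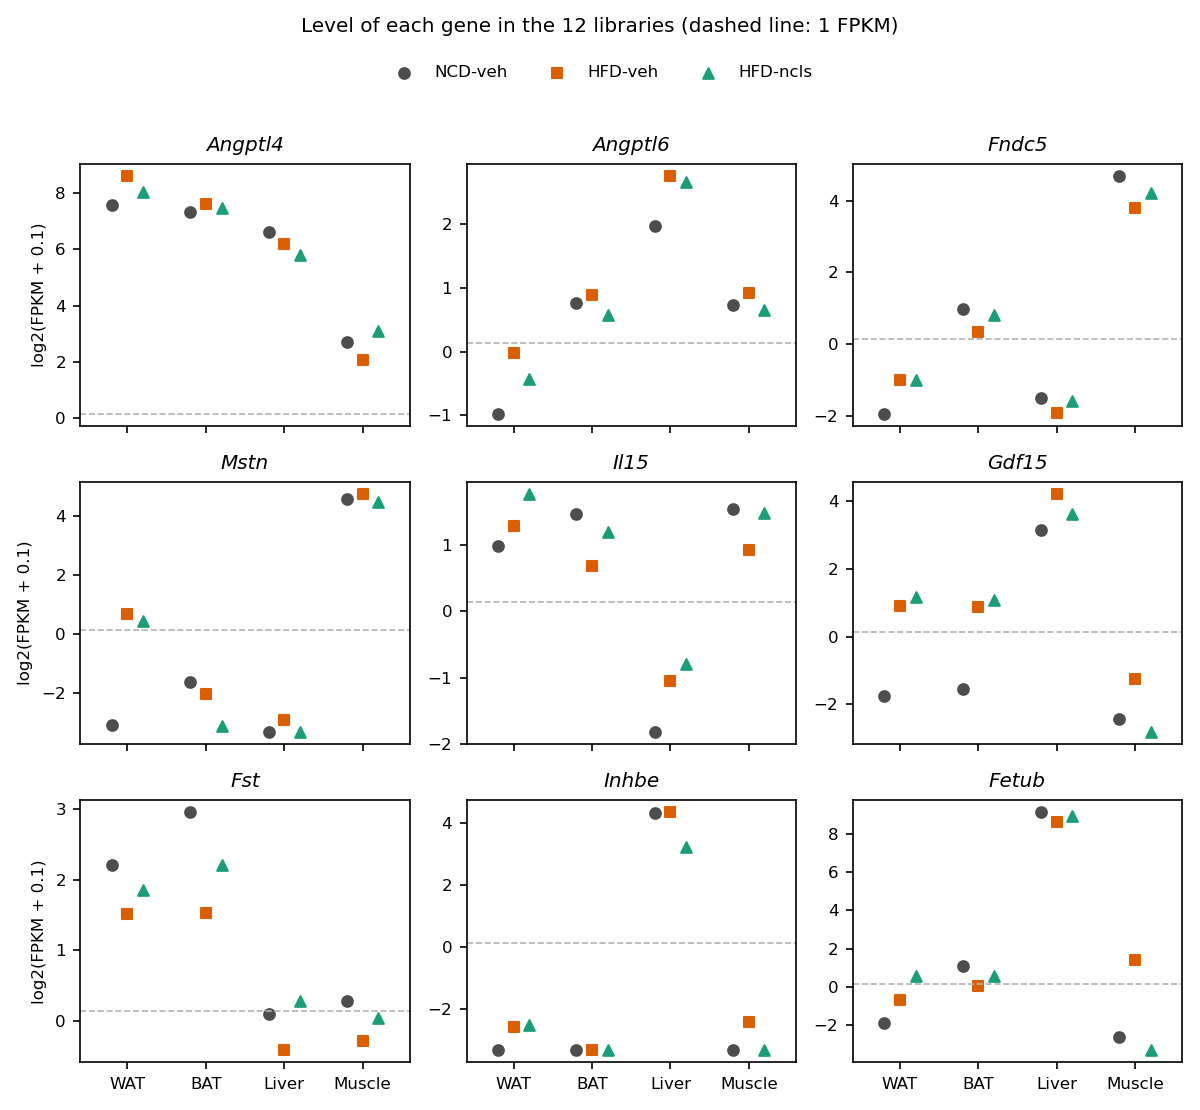
Levels of the 9 genes in log2(FPKM + 0.1) (vertical axes, a separate range in each panel) in 4 organs (horizontal axis), with 1 point per library in grey circles (NCD-veh), orange squares (HFD-veh) and green triangles (HFD-ncls). The dashed line lies at 1 FPKM. Fetub in liver, at 400 to 567 FPKM, and Angptl4 in WAT, at 194 to 395 FPKM, were the highest of the set, and the liver points of Inhbe stood at 9.38 to 20.5 FPKM while its other 9 points lay below 0.1 FPKM.

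Between HFD-veh and NCD-veh, Gdf15 was higher in WAT, BAT and liver, Angptl4 and Mstn were higher in WAT, Fst and Fetub were lower in BAT, and Fetub was higher in muscle, each past 2-fold. In WAT, 3 of the 5 genes that reached 1 FPKM passed 2-fold, against 9.11% of all genes. In BAT it was 3 of 7 against 4.29% of all genes, in liver 1 of 5 against 5.12%, and in muscle 1 of 7 against 4.11%. Mstn and Gdf15 in WAT, Gdf15 in BAT and Fetub in muscle reached 1 FPKM only in HFD-veh, where they were high. Fetub in BAT reached it only in NCD-veh, where it was high. These counts are therefore a description, and nothing is read from them against the share of all genes. The median log2 difference of the tested members was 1.03 in WAT, -0.64 in BAT, 0.02 in liver and -0.57 in muscle, and that of all genes lay between -0.04 and 0.04.

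Between HFD-ncls and HFD-veh, Inhbe was lower in liver, Angptl4 was higher in muscle, and Fetub was higher in WAT and lower in muscle. In WAT, 1 of 6 genes passed 2-fold, against 1.70% of all genes. In BAT it was 0 of 7 against 1.96%, in liver 1 of 6 against 2.31%, and in muscle 2 of 6 against 3.80%. Fetub reached 1 FPKM only in HFD-ncls in WAT and only in HFD-veh in muscle. The medians of the tested members were 0.29 in WAT, 0.48 in BAT, -0.24 in liver and 0.07 in muscle on the log2 scale. Both comparisons use the same HFD-veh libraries, so a high or low value there moves both in opposite directions.

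**Figure D2:**
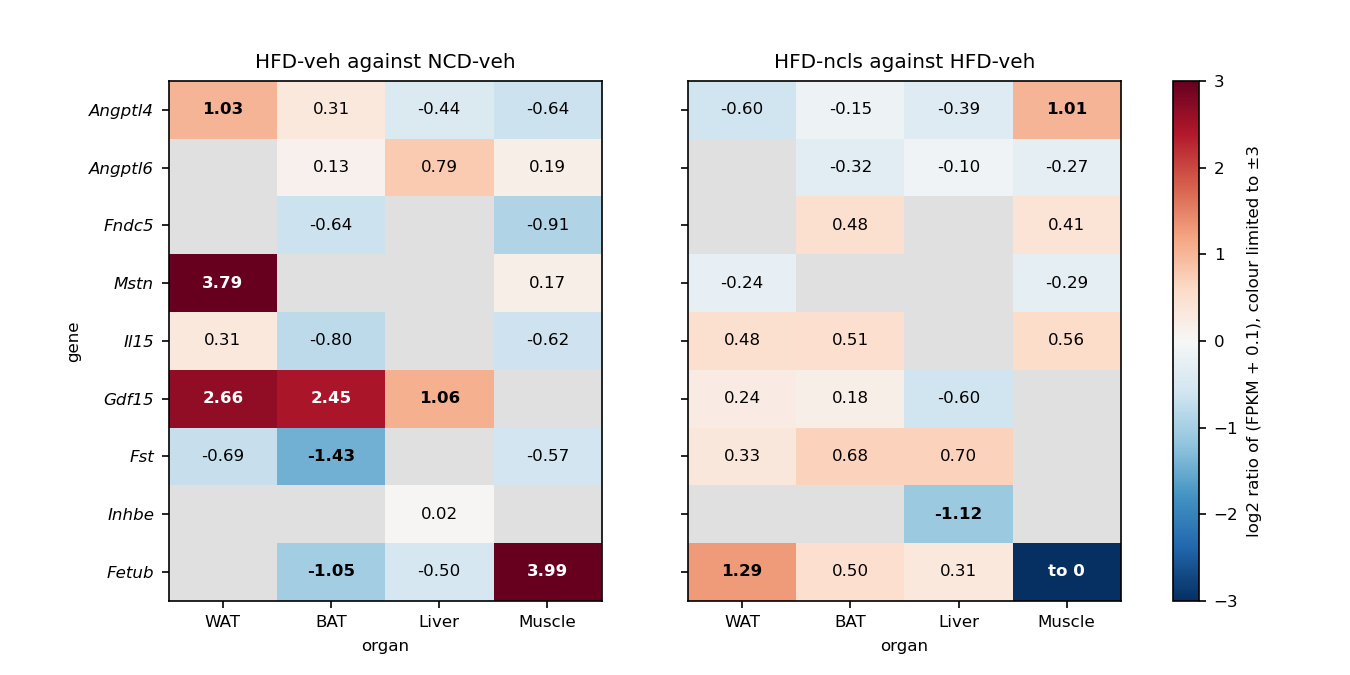
Log2 ratios of (FPKM + 0.1) for the 9 genes (vertical axis) in 4 organs (horizontal axis), for HFD-veh against NCD-veh (left) and HFD-ncls against HFD-veh (right), with red for higher and blue for lower. Bold numbers are past 2-fold, grey cells did not reach 1 FPKM in either library, and "to 0" marks Fetub in muscle, where the HFD-ncls library lists it at 0. The diet panel has 8 values past 2-fold in 24 tested cells and the ncls panel 4 in 25.

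Angptl4 (chr17:33910695-33918520, minus strand, mm9) encodes the fasting-responsive inhibitor of lipoprotein lipase and is a target of the PPAR nuclear receptors. Its level in WAT was 194 FPKM in NCD-veh, 395 FPKM in HFD-veh and 261 FPKM in HFD-ncls. In BAT the values in the same order were 160, 199 and 179 FPKM. Both fat depots stood above liver, at 98.8, 72.6 and 55.3 FPKM, and far above muscle, at 6.47, 4.12 and 8.40 FPKM. The WAT and BAT levels overlapped, and their mean log2 difference of 0.60 ± 0.33 (SE, 3 libraries per organ) did not pass (limma, adjusted p = 0.12). BAT exceeded liver by 1.28 ± 0.33 on the log2 scale (limma, adjusted p = 0.0071), and liver exceeded muscle by 3.57 ± 0.33 (limma, adjusted p = 6.5e-06). Without NCD-veh WAT, the WAT level exceeded BAT by 0.91 (limma, adjusted p = 0.041). Over all genes and with all libraries, the median difference of WAT minus BAT was 0.97, larger than either value for Angptl4.

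In WAT, Angptl4 was higher in HFD-veh than in NCD-veh by 1.03 on the log2 scale, an FPKM ratio of 2.04 (1.99 to 2.08). The value sat at the edge of 2-fold and was no longer past it after rescaling by the median ratio of all genes. HFD-ncls WAT was lower than HFD-veh WAT by a log2 difference of -0.60, which left it between the other 2 libraries. Lpl, which encodes the lipase, was at 2499, 2722 and 2701 FPKM in WAT in the 3 groups. Plin2, a lipid droplet coat gene that PPARs also control, was at 95.2, 318 and 299 FPKM in WAT, and it was the 1 of 7 listed PPAR targets that was higher past 2-fold with diet there.

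In muscle the order of Angptl4 differed, with the lowest level in HFD-veh. HFD-ncls muscle exceeded HFD-veh muscle by 1.01 on the log2 scale, an FPKM ratio of 2.04 (1.78 to 2.33) from about 646 against 324 fragments. With a pseudocount of 1 FPKM the log2 difference was 0.88 and with rescaling 0.97, both under 2-fold. Pdk4, the kinase that shuts off pyruvate dehydrogenase, was at 404, 122 and 415 FPKM in muscle. Ucp3, a mitochondrial carrier of oxidative muscle, was at 115, 52.7 and 95.2 FPKM, and Acot2, a mitochondrial acyl-CoA thioesterase, at 8.66, 5.13 and 13.6 FPKM. Like Angptl4, these 3 genes were lowest in HFD-veh muscle. Of the 7 listed PPAR targets, Pdk4 and Acot2 were past 2-fold higher with ncls in muscle and none was past 2-fold lower. The other listed targets Cpt1a, Acadm, Plin2 and Ehhadh differed by log2 values between -0.14 and 0.11 there.

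By the medians of their markers, fat and liver transcripts were both highest in HFD-veh muscle, and their part in the Angptl4 levels was not tested. The 8 white adipose markers stood in muscle at a median of 0.375%, 1.63% and 0.855% of their WAT level, with a range of 0.420% to 7.38% in HFD-veh. At these medians, the WAT level of Angptl4 corresponds to 0.727, 6.43 and 2.23 FPKM, against measured muscle levels of 6.47, 4.12 and 8.40 FPKM. At the share of Plin1, a lipid droplet coat gene of adipocytes, it corresponds to 0.593, 3.69 and 1.78 FPKM. In HFD-veh muscle the shares of Lep and Cidec, like that of Plin1, gave values below the measured level, at 1.66 and 2.80 FPKM. The shares of Adipoq, Retn, Nnat, Cfd and Plin4 gave 4.94, 7.92, 19.1, 20.2 and 29.2 FPKM in HFD-veh muscle, above the measured level. At the 0.626% share of the liver markers, the liver level of Angptl4 corresponds to 0.454 FPKM in that library.

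**Figure D3:**
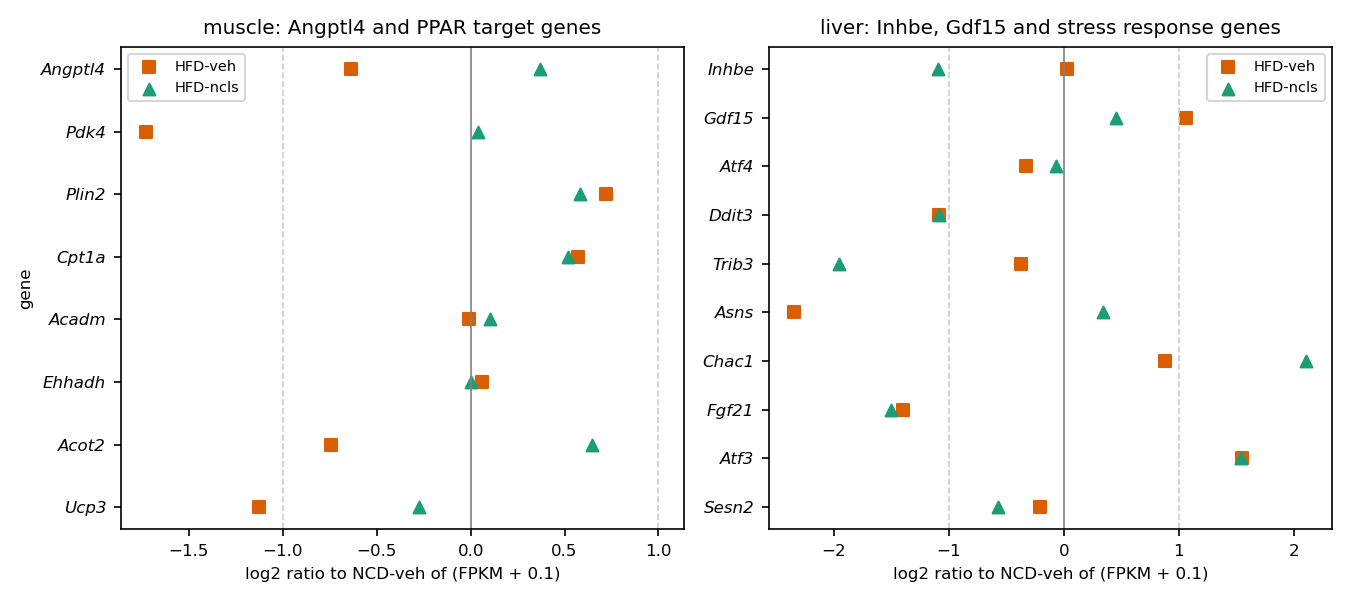
Log2 ratio to NCD-veh of (FPKM + 0.1) (horizontal axes) in HFD-veh (orange squares) and HFD-ncls (green triangles), for Angptl4 and the 7 listed PPAR target genes in muscle (left) and for Inhbe, Gdf15 and the 8 listed integrated stress response genes in liver (right), with dashed lines at 2-fold. In muscle Angptl4, Pdk4, Acot2 and Ucp3 lie left of 0 in HFD-veh and right of their HFD-veh points in HFD-ncls. In liver Inhbe lies at 0.02 in HFD-veh and is past 2-fold lower in HFD-ncls, while Asns, at 5.21, 0.947 and 6.65 FPKM, is low in HFD-veh and near its NCD-veh level in HFD-ncls.

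Angptl6 (chr9:20678253-20684154, minus strand, mm9), which encodes a relative of Angptl4 also known as angiopoietin-related growth factor and tied to energy expenditure, was a low liver transcript. Its liver level was 3.80 FPKM in NCD-veh, 6.65 FPKM in HFD-veh and 6.21 FPKM in HFD-ncls. Muscle had 1.56, 1.79 and 1.47 FPKM, BAT 1.59, 1.75 and 1.38 FPKM, and WAT 0.407, 0.881 and 0.645 FPKM. Liver exceeded muscle by 1.69 ± 0.21 (SE) on the log2 scale (limma, adjusted p = 5.0e-05), and muscle and BAT, which overlapped, differed by 0.03 ± 0.21 (limma, adjusted p = 0.91). In each of the 4 organs the HFD-veh library was the highest of its 3. No tested difference passed 2-fold, the nearest being diet in liver at 0.79. WAT stayed under 1 FPKM and was not tested, with an FPKM ratio for diet of 2.16 (1.07 to 4.54, about 13 against 27 fragments). The last 499 bases of the gene overlap A230050P20Rik on the other strand, and since the libraries are not stated to keep strand, reads in that stretch cannot be told apart.

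Of 4 other angiopoietin-like genes, 2 were past 2-fold higher with diet in WAT. With ncls, 1 was higher in WAT, 1 lower in liver and 1 higher in muscle. Angptl8, listed under the older symbol Gm6484, encodes a feeding-induced regulator of lipoprotein lipase. In liver it was at 71.4 FPKM in NCD-veh, 52.9 FPKM in HFD-veh and 18.0 FPKM in HFD-ncls, and its ncls difference was -1.55 on the log2 scale. In WAT it was at 3.71, 16.1 and 23.9 FPKM. Angptl4 in liver shared the order of Angptl8, with the highest level in NCD-veh and the lowest in HFD-ncls, but at log2 differences of -0.44 for diet and -0.39 for ncls.

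Fndc5 (chr4:128814243-128821837, plus strand, mm9) encodes the membrane precursor of irisin. Muscle was its main source, at 25.9 FPKM in NCD-veh, 13.8 FPKM in HFD-veh and 18.4 FPKM in HFD-ncls. BAT had 1.88, 1.17 and 1.67 FPKM, and WAT and liver stayed below 0.4 FPKM. Muscle exceeded BAT by 3.52 ± 0.31 (SE) on the log2 scale (limma, adjusted p = 7.5e-06) and BAT exceeded WAT by 2.05 ± 0.31 (limma, adjusted p = 0.00022). WAT and liver did not differ beyond their spread, with a difference of 0.35 ± 0.31 (limma, adjusted p = 0.32). That order is not settled, since without NCD-veh WAT the WAT level exceeded liver by 0.81 (limma, adjusted p = 0.0041), and after quantile normalization it was below liver by a log2 difference of -1.21 (limma, adjusted p = 0.0017). HFD-veh was the lowest library in both muscle and BAT.

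The diet difference of Fndc5 in muscle was -0.91 on the log2 scale, an FPKM ratio of 0.532 (0.492 to 0.576), which is close to but not past 2-fold. The ncls difference was 0.41, and HFD-ncls muscle lay between the other 2 libraries. In BAT, Fndc5 made up 7.25%, 8.50% and 9.08% of the muscle level, whereas the muscle markers there went from 1.83% to 0.779% and 0.112%. The part of muscle transcripts in the Fndc5 levels of BAT was not tested. Ppargc1a, the coactivator known as a regulator of Fndc5, was at 3.51, 3.80 and 2.98 FPKM in muscle, and none of the 7 listed relatives and regulators of FNDC5 was past 2-fold in either comparison in any organ.

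Mstn (chr1:53118507-53124923, plus strand, mm9) encodes myostatin, the inhibitor of muscle growth. Its 250 bases before the transcription start are shown because the gene is low outside muscle, and capitals mark letters that match TATAAA or CCAAT on either strand (RefSeq, GRCm38.p6, chr1:53061390-53061639, plus strand):
Mstn: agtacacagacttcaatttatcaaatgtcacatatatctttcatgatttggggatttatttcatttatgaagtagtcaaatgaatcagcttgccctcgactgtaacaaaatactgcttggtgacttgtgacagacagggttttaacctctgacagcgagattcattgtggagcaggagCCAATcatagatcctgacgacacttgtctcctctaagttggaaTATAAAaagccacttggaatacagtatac
The TATAAA match lies 29 to 24 bases and the CCAAT match 72 to 68 bases before the start. TATAAA was found in 12.4% and CCAAT in 33.8% of the 32851 promoters of that length in the table, so a match is only a description of the letters.

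Muscle held 24.1 FPKM of Mstn in NCD-veh, 27.1 FPKM in HFD-veh and 22.2 FPKM in HFD-ncls, and the 3 groups were within log2 differences of 0.17 for diet and -0.29 for ncls. Liver was listed at 0 in NCD-veh and HFD-ncls and had 0.0329 FPKM in HFD-veh. Muscle exceeded WAT, the next organ, by 5.25 ± 0.80 (SE) on the log2 scale (limma, adjusted p = 0.00016). WAT exceeded BAT by 1.61 ± 0.80, which did not pass (limma, adjusted p = 0.090), and the 3 WAT libraries spread widely. Without NCD-veh WAT the difference was 2.91 (limma, adjusted p = 7.5e-05), and without NCD-veh BAT it was 2.36 (limma, adjusted p = 0.029).

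In WAT, Mstn was at 0.0177 FPKM in NCD-veh, which is about 1 fragment, at 1.53 FPKM in HFD-veh (about 81 fragments) and at 1.28 FPKM in HFD-ncls (about 62 fragments). Both HFD libraries were thus far above the NCD-veh library and close to each other. The FPKM ratio for diet was 86.4, with a counting interval of 14.6 to 3353, and the difference on log2(FPKM + 0.1) was 3.79, or 1.31 with a pseudocount of 1 FPKM. Muscle markers had a median of 0.0120%, 0.0121% and 0.0137% of the muscle level in the 3 WAT libraries. Mstn stood at 0.0734%, 5.64% and 5.77% of its muscle level. Of the 4 muscle markers tested in WAT with diet, none was past 2-fold. Acta1, the highest of them, was at 30.7, 55.2 and 40.2 FPKM, or 0.127%, 0.243% and 0.174% of its muscle level. In BAT, Mstn was at 0.226, 0.148 and 0.0148 FPKM, about 16, 10 and 1 fragments, too low for a ratio under the 1 FPKM minimum. These levels are 0.940%, 0.546% and 0.0668% of its muscle level, where the muscle markers had medians of 1.83%, 0.779% and 0.112%. The part of muscle transcripts in the Mstn levels of WAT and BAT was not tested.

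Few receptors of myostatin and activin passed 2-fold in the organs where Mstn was measured. Of 9 listed receptors and SMADs, none was past 2-fold with diet in WAT or muscle, and 1 was with ncls in muscle. That gene was Acvr2b, the main myostatin receptor, at 2.36, 1.26 and 2.78 FPKM in muscle. Wfikkn2, a secreted myostatin binder, was at 4.35, 2.83 and 4.12 FPKM in muscle, and Acvr1c, an activin receptor of adipocytes, at 28.8, 15.2 and 12.6 FPKM in WAT.

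Il15 (chr8:84855536-84927121, minus strand, mm9) encodes the cytokine that maintains natural killer and memory T cells. Its levels were 1.88, 2.35 and 3.33 FPKM in WAT, 2.68, 1.5 and 2.19 FPKM in BAT, and 2.82, 1.80 and 2.69 FPKM in muscle. These 3 organs overlapped, and WAT and muscle differed by 0.04 ± 0.30 (SE) on the log2 scale (limma, adjusted p = 0.92). Muscle and BAT differed by 0.20 ± 0.30 (limma, adjusted p = 0.57). Liver, at 0.182, 0.381 and 0.475 FPKM, was below BAT by 2.34 ± 0.30 (limma, adjusted p = 7.9e-05). After quantile normalization, which takes out the higher median of WAT, Il15 in WAT was below muscle by a log2 difference of -1.60 and below BAT by -1.11 (limma, adjusted p = 0.00069 and 0.0075).

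Il15 did not pass 2-fold in either comparison. HFD-veh was the lowest library in BAT, with a diet difference of -0.80 on the log2 scale, and in muscle, with -0.62. The ncls differences were 0.48 in WAT, 0.51 in BAT and 0.56 in muscle. They rest on about 71 to 129 fragments per library, with FPKM ratios of 1.41 (1.07 to 1.89), 1.46 (1.06 to 1.98) and 1.5 (1.13 to 1.98). Il15ra, which encodes the receptor chain that presents IL-15 to neighbouring cells, was at 19.1, 29.5 and 42.4 FPKM in BAT and at 11.3, 7.84 and 11.5 FPKM in WAT. Of the 7 listed genes of IL-15 signalling, 1 was past 2-fold, the receptor chain gene Il2rg with diet in BAT at 1.39 against 3.09 FPKM.

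Gdf15 (chr8:73153292-73156355, minus strand, mm9) encodes a stress-induced cytokine that lowers food intake through the hindbrain receptor GFRAL. The first of its 2 promoters in the table is shown because Gdf15 is a known target of the integrated stress response, whose factor ATF4 binds the ATF4-C/EBP composite site TGATGCAA (RefSeq, GRCm38.p6, chr8:70632457-70632706, minus strand):
Gdf15: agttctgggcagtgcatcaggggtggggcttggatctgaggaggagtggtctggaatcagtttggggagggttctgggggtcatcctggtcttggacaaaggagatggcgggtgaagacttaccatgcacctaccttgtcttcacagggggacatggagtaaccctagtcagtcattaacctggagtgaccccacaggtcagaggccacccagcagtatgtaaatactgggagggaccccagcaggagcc
Neither TGATGCAA nor TTGCATCA, its other strand, nor TATAAA or CCAAT is in these 250 bases, and no capitals are therefore printed. That says only that these letters are not in this window.

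Liver held the most Gdf15, at 8.88 FPKM in NCD-veh, 18.6 FPKM in HFD-veh and 12.2 FPKM in HFD-ncls. BAT had 0.239, 1.75 and 2.0 FPKM, WAT 0.199, 1.79 and 2.14 FPKM, and muscle 0.0836, 0.318 and 0.0404 FPKM. In WAT and BAT both HFD libraries were high and the NCD-veh library low, whereas in liver HFD-ncls lay between the other 2. Liver exceeded BAT by 3.54 ± 0.56 (SE) on the log2 scale (limma, adjusted p = 0.00035), and BAT and WAT differed by 0.02 ± 0.56 (limma, adjusted p = 0.98). WAT exceeded muscle by 2.29 ± 0.56 although their libraries overlapped (limma, adjusted p = 0.0035), but by 0.66 after quantile normalization (limma, adjusted p = 0.29).

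With diet, the FPKM ratio of Gdf15 was 9.0 in WAT (4.09 to 27.0, about 6 against 55 fragments), 7.31 in BAT (3.51 to 15, about 10 against 66 fragments) and 2.10 in liver (1.83 to 2.41). On the log2 scale these were 2.66, 2.45 and 1.06, and with a pseudocount of 1 FPKM they were 1.22, 1.15 and 0.99. With ncls, WAT differed by 0.24, BAT by 0.18 and liver by -0.60 on the log2 scale, none past 2-fold. At the share of the liver markers in WAT, the liver level of Gdf15 corresponds to 0.0125 FPKM in HFD-veh WAT and 0.0291 FPKM in HFD-ncls WAT.

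Macrophage markers moved with Gdf15 in part of these libraries. Summed over 6 markers, they were at 200, 613 and 691 FPKM in WAT, with 4 of the 6 past 2-fold higher with diet. In BAT the sums were 14.6, 37.4 and 12.7 FPKM, carried mainly by Lgals3 at 2.68, 20.8 and 2.68 FPKM. The median marker in BAT was at 3.0, 2.98 and 2.60 FPKM, and 2 of 5 tested markers were past 2-fold higher with diet. Their part in the Gdf15 levels was not tested. Of 7 tested integrated stress response genes, 1 was past 2-fold higher with diet in WAT and in BAT, with list medians of 0.25 and -0.12 on the log2 scale. That gene was the factor Atf3 in both, at 2.62, 12.5 and 18.2 FPKM in WAT and 1.25, 4.40 and 3.93 FPKM in BAT, while Asns was at 33.5, 19.8 and 18.0 FPKM in WAT. In liver, the main organ of Gdf15, 0 of 7 tested genes of this list were past 2-fold higher with diet. There 3 were past 2-fold lower, Asns, Fgf21 and Ddit3, and the list median was -0.37 on the log2 scale. Of the GDF15 receptor genes, Gfral was listed at 0 in all 12 libraries, and Ret, its signalling partner, was at 2.41, 7.28 and 7.27 FPKM in WAT.

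Fst (chr13:115242470-115249159, minus strand, mm9) encodes follistatin. BAT had 7.67 FPKM in NCD-veh, 2.78 FPKM in HFD-veh and 4.52 FPKM in HFD-ncls, and WAT had 4.52, 2.77 and 3.50 FPKM. Liver, with 0.970, 0.650 and 1.12 FPKM, and muscle, with 1.12, 0.723 and 0.934 FPKM, were lower. In all 4 organs HFD-veh was the lowest library. BAT and WAT overlapped and differed by 0.37 ± 0.20 (SE) on the log2 scale (limma, adjusted p = 0.12), and muscle and liver by 0.03 ± 0.20 (limma, adjusted p = 0.91). Without HFD-veh BAT, the difference of WAT minus BAT was -0.55 (limma, adjusted p = 0.049). WAT exceeded muscle by 1.84 ± 0.20 (limma, adjusted p = 1.8e-05). After quantile normalization WAT exceeded muscle by 0.17 (limma, adjusted p = 0.50) and liver by 0.40 (limma, adjusted p = 0.12). It was then below BAT by a log2 difference of -1.68 (limma, adjusted p = 0.00010).

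The 1 difference of Fst past 2-fold was diet in BAT, at -1.43 on the log2 scale and an FPKM ratio of 0.362 (0.301 to 0.435, about 459 against 160 fragments). With ncls the differences were 0.68 in BAT, 0.33 in WAT and 0.70 in liver, where the levels were near 1 FPKM. Fstl3, a related trap for activin and myostatin, had the opposite order in BAT, at 0.341, 1.56 and 0.478 FPKM, and was past 2-fold in both comparisons there. Smad7, an intracellular brake on TGF-beta receptors, was at 0.629, 1.65 and 1.01 FPKM in BAT. The muscle markers in BAT were also highest in NCD-veh, and the Fst level in muscle was below that in BAT in each of the 3 groups. Their part in the Fst levels was not tested.

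Inhbe (chr10:126786458-126788828, minus strand, mm9) encodes the beta E subunit of activin E, a hepatokine that acts on adipocyte lipolysis. Its promoter is shown because Inhbe, in liver, was the 1 member lower past 2-fold with ncls in its source organ. Capitals mark matches of the ATF4-C/EBP composite site and of CCAAT (RefSeq, GRCm38.p6, chr10:127351849-127352098, minus strand):
Inhbe: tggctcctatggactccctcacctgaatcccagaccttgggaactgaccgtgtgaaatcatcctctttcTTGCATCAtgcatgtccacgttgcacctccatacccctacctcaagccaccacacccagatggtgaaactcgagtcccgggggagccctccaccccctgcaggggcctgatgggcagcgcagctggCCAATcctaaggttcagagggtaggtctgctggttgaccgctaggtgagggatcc
The letters TTGCATCA, the other strand of TGATGCAA, lie 181 to 174 bases before the start, and CCAAT lies 55 to 51 bases before it. The composite letters were found in 260 of the 32851 promoters, or 0.791%. The motif letters were chosen after the sequences were seen, so a match is only a description of the letters.

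Liver held 20.2 FPKM of Inhbe in NCD-veh, 20.5 FPKM in HFD-veh and 9.38 FPKM in HFD-ncls. The NCD-veh and HFD-veh livers were close, with a log2 difference of 0.02, and the HFD-ncls liver was lower than HFD-veh, at a log2 difference of -1.12, an FPKM ratio of 0.457 (0.409 to 0.512, about 463 against 981 fragments). Liver exceeded WAT by 6.78 ± 0.35 (SE) on the log2 scale (limma, adjusted p = 1.1e-07), and the other 3 organs did not differ beyond their spread. Outside liver, Inhbe was listed at 0 in NCD-veh WAT, NCD-veh BAT, NCD-veh muscle and HFD-ncls muscle. HFD-veh muscle had 0.0907 FPKM, and at the share of the liver markers the liver level corresponds to 0.128 FPKM there.

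The listed stress response genes did not move together with Inhbe in liver. Asns, the asparagine synthetase, was at 5.21, 0.947 and 6.65 FPKM in liver. Trib3, a pseudokinase induced by the same factors, was at 2.75, 2.10 and 0.635 FPKM, and Chac1, a glutathione-degrading enzyme, at 0.944, 1.82 and 4.41 FPKM. Fgf21, a hepatokine, was at 8.83, 3.29 and 3.05 FPKM. With ncls, 2 of the 7 tested genes were past 2-fold higher and 1 lower, with a median log2 difference of 0.00. Inhbc, the liver gene for the related beta C subunit, was at 37.6, 27.2 and 37.7 FPKM, with a log2 difference of 0.47 with ncls.

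Fetub (chr16:22918455-22939839, plus strand, mm9) encodes fetuin-B, a plasma protease inhibitor secreted by hepatocytes. The first of its 2 promoters in the table is shown as that of the most abundant transcript of the set, with matches of TATAAA and of ATTGG, the other strand of CCAAT, in capitals (RefSeq, GRCm38.p6, chr16:22918132-22918381, plus strand):
Fetub: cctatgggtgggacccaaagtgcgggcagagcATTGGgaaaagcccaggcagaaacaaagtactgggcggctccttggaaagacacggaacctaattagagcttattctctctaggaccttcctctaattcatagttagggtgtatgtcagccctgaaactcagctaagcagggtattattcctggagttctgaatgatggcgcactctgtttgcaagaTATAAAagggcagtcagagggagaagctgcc
TATAAA lies 31 to 26 bases and ATTGG 218 to 214 bases before the start.

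Liver held 567 FPKM of Fetub in NCD-veh, 400 FPKM in HFD-veh and 496 FPKM in HFD-ncls. The log2 differences were -0.50 for diet and 0.31 for ncls, with HFD-veh the lowest. Ahsg, the gene for the related fetuin-A, and Hrg and Kng1, genes for other plasma proteins of the cystatin family, were also lowest in HFD-veh liver, with diet differences of -0.56, -0.74 and -0.66. Liver exceeded BAT by 8.35 ± 1.05 (SE) on the log2 scale (limma, adjusted p = 7.4e-05), and BAT, WAT and muscle did not differ beyond their spread. Without HFD-veh muscle, both fat depots exceeded muscle, WAT by 2.43 and BAT by 3.66 (limma, adjusted p = 0.0062 and 0.00093).

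The low Fetub levels outside liver gave 4 values past 2-fold. Those in muscle and WAT had the direction of the liver markers, and the diet value in BAT that of 2 of the 3 markers tested there. Muscle was at 0.0647 FPKM in NCD-veh, which is about 2 fragments, at 2.52 FPKM in HFD-veh. The HFD-ncls library lists it at 0. At the share of the 15 liver markers, the liver level of Fetub corresponds to 2.50 FPKM in HFD-veh muscle. The FPKM ratio for diet there was 38.9, with a counting interval of 13.1 to 405, and the log2 difference of 3.99 became 1.73 with a pseudocount of 1 FPKM. All 16 listed liver markers were past 2-fold higher with diet and past 2-fold lower with ncls in muscle, as Fetub was.

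In WAT, Fetub was at 0.168, 0.515 and 1.4 FPKM, and the ncls difference was 1.29 on the log2 scale, an FPKM ratio of 2.72 (1.49 to 5.20). At the share of the liver markers the liver level corresponds to 0.00279 FPKM in NCD-veh WAT, 0.269 FPKM in HFD-veh WAT and 1.18 FPKM in HFD-ncls WAT. Of the 15 liver markers tested in WAT, 12 were past 2-fold higher with ncls and none lower. Ahsg was at 0.143, 2.72 and 9.41 FPKM in WAT.

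In BAT, Fetub was at 2.04, 0.934 and 1.37 FPKM, which is 0.359%, 0.234% and 0.276% of the liver level. The median share of the liver markers there was 0%, 0% and 0.00175%. Of the 3 liver markers tested in BAT with diet, 2 were past 2-fold lower and none higher. These were Hpd, at 3.24, 0.790 and 2.02 FPKM, and Cyp2e1, at 75.1, 16.3 and 25.2 FPKM. Apoa2, the other, was at 2.10, 2.89 and 1.85 FPKM. Their part in the Fetub levels of BAT was not tested. Ahsg was listed at 0 in NCD-veh and HFD-veh BAT. The diet difference of Fetub in BAT was -1.05 on the log2 scale, an FPKM ratio of 0.459 (0.300 to 0.684, about 82 against 36 fragments), and -0.65 with a pseudocount of 1 FPKM. Of the libraries compared, only NCD-veh reached 1 FPKM.

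**Figure D4:**
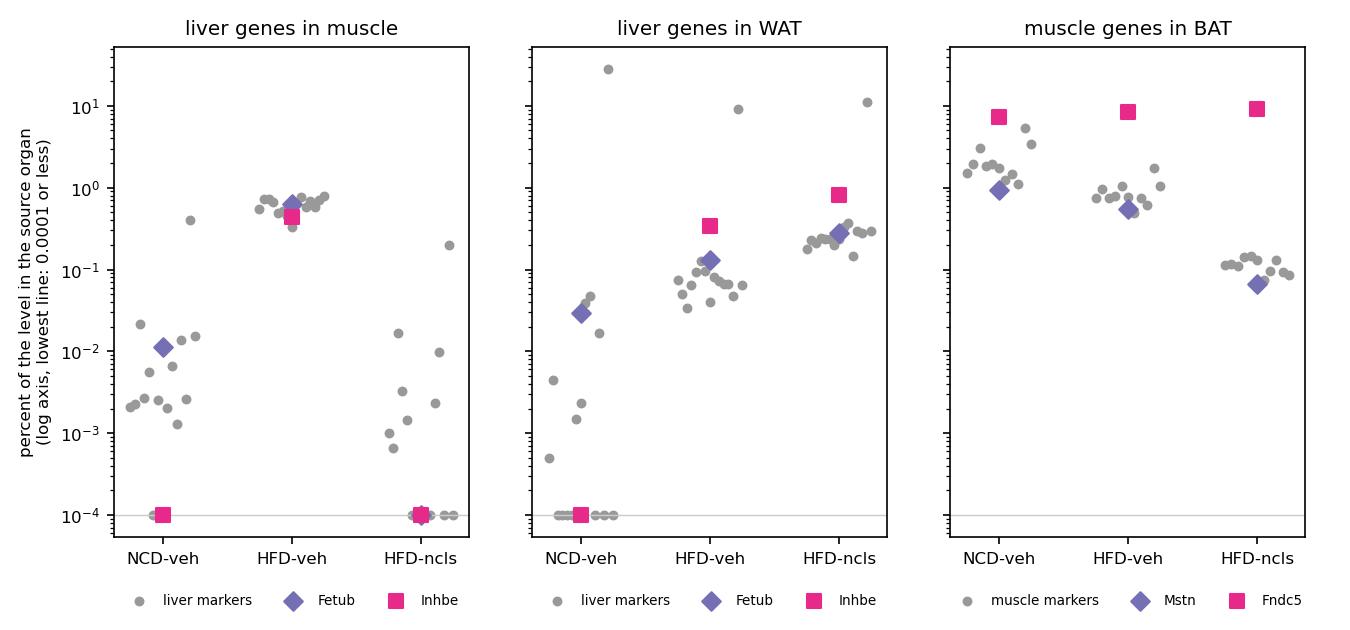
Level as a percentage of the level in the source organ under the same condition (vertical axis, log scale, with values of 0.0001 or less drawn on the lowest line) in the libraries of each group (horizontal axis). Grey points are single marker genes of the source organ, and coloured symbols are Fetub and Inhbe (liver genes, in muscle and WAT) and Mstn and Fndc5 (muscle genes, in BAT). In HFD-veh muscle, at 0.630%, and in HFD-ncls WAT, at 0.283%, Fetub lies among the liver markers, Mstn in BAT lies at the lower edge of the muscle markers, and Fndc5 in BAT stays near 7.25% to 9.08% as the markers go down.

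The genes whose log2 levels were most like those of each member over the 12 libraries were named as a description, with Pearson's r among 13648 genes. The points share organ, depth and group, so r mainly reflects the organ pattern. Inhbe was most like A1cf (0.998), Fetub most like Cyp2d26 (0.996) and Gdf15 most like Timm8a1 (0.957). Fndc5 was most like Kcnj11 (0.988) and Mstn most like Eya1 (0.986). For Angptl4 it was Cdk17 (0.992), for Il15 Mcrs1 (0.979), for Fst Accs (0.964) and for Angptl6 Mif (0.960).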

How the data were processed

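RNA of 4 organs was sequenced in the 3 groups with 1 library per organ and group, and groups were read from the sample labels. Per the methods, the authors used TopHat 2.0.11 for alignment to mm9 and deposited FPKM per RefSeq gene from Cufflinks, and no scaling between libraries is stated. Here, no count test was applied. Ratios used log2(FPKM + 0.1) and at least 1 FPKM in at least 1 library. The 2-fold threshold is the fold part of the study's criterion, which also had p-value and FDR cutoffs that were not applied here. For muscle the study also used 1.4-fold. Organs were compared with limma 3.58.1 (R 4.3.3) with trend, terms for organ and group, 6 residual degrees of freedom and Benjamini-Hochberg adjustment over 13648 genes within each contrast. Nothing says that libraries came from separate mice, so p-values measure only the spread between these libraries. Depth is approximate, from FPKM steps of 1 fragment and GENCODE lengths of genes with 1 transcript. Members, gene lists and named genes (all members, the lists of their pathways and the genes most like each member) were chosen with earlier results of these data known, and the motif letters after the sequences were seen. Promoters of 6 members came from RefSeq (GRCm38.p6), and gene positions from GENCODE on mm9. Values of 2 listed genes are not reported here. Python 3.11.15 with pandas 2.3.3 and scipy 1.17.1 was used.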

Additional observations from a re-analysis of the deposited data

Results flagged for a closer look

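Fetub was past 2-fold with diet in opposite directions in 2 organs. The log2 ratio of HFD-veh to NCD-veh was -1.05 in BAT and 3.99 in muscle. With 1 library per group the difference between the organs was not tested. The muscle value rests on HFD-veh muscle, whose liver markers had a median of 0.626% of their liver level, against 0.00265% in NCD-veh muscle, while those of BAT were at a median of 0% in both libraries. Of the 3 liver markers tested in BAT with diet, 2 were past 2-fold lower and none higher.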

How the results depend on the processing

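The 8 member values past 2-fold with diet became 3 at a minimum of 5 FPKM and 17 at a threshold of 1.4-fold. They became 6 with a pseudocount of 1, 10 without a minimum, 7 with rescaling by the median ratio, and 7 without HFD-veh muscle. The 4 values with ncls became 2 with a pseudocount of 1, 2 at a minimum of 5 FPKM, 11 at 1.4-fold, 6 without a minimum, 3 with rescaling, 2 without HFD-veh muscle and 3 without HFD-ncls WAT. The settings without HFD-veh muscle or HFD-ncls WAT were chosen after seeing the data. A pseudocount of 0.01 left both counts as they were. Leaving out each library in turn gave 36 to 41 organ differences past the threshold, against 37 with all. The difference of Mstn between WAT and liver was lost without HFD-veh WAT (limma, adjusted p = 0.069) or HFD-ncls WAT (0.071). Without HFD-veh muscle, Fetub in WAT and BAT exceeded muscle by 2.43 and 3.66 on the log2 scale (limma, adjusted p = 0.0062 and 0.00093). Quantile normalization gave 38 organ differences, of which 34 were shared. It reversed Il15 for WAT against BAT (-1.11) and against muscle (-1.60). Il15 in WAT against muscle, 0.04 with all libraries and not past the threshold, also turned negative without HFD-veh WAT (-0.04), HFD-ncls WAT (-0.06), HFD-veh muscle (-0.11) or HFD-ncls muscle (-0.04), and ranged from -0.11 to 0.25 over the libraries left out. The cause was not tested. With organ as the only term, without the group, the same 37 organ differences passed. No paired analysis was possible because the labels give no replicate numbers. Depth limits members under 1 FPKM, whose levels rest on few fragments.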

Other observations

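Angptl7, an angiopoietin-like gene of connective tissue, was at 2.61 FPKM in NCD-veh, 2.21 FPKM in HFD-veh and 7.68 FPKM in HFD-ncls muscle, a log2 difference of 1.75 with ncls. In WAT it was at 0.0943, 0.558 and 1.25 FPKM. Lipg, which encodes endothelial lipase, was the 1 gene of the listed lipase group past 2-fold in liver, at 2.83, 8.94 and 6.32 FPKM. Chac1 in muscle was at 48.8, 40.8 and 91.5 FPKM, with a log2 difference of 1.16 with ncls, and Atf3 there was at 0.664, 3.83 and 1.29 FPKM. Kng1 in BAT, where Ahsg and Hrg were at or near 0, was at 1.70, 5.50 and 4.29 FPKM.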
